A study of Mus musculus with 20 samples.

Results

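The genes of blood coagulation and fibrinolysis were described in the livers of mice given Nafion byproduct 2, a polyfluoroalkyl ether sulfonic acid. The 33 genes were named as a list (fibrinogen chains, clotting factors, the contact system, anticoagulants, fibrinolysis genes and the vitamin K cycle), and every probe of the deposited count table whose symbol was on the list was kept. This gave 55 of 30146 probes and 32 of 21450 symbols. Vkorc1 was not analysed here, because no probe carried its symbol.

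Liver RNA was measured with TempO-Seq, a targeted assay. A pair of short detector oligonucleotides is joined where both sit side by side on their RNA, and the joined product is sequenced and counted. All 20 animals were Balb-C males 10 to 12 weeks old, were gavaged once a day for 7 days, and gave 1 library each. The 5 groups of 4 mice were a control (0 mg/kg) and daily doses of 0.03, 0.3, 3 and 6 mg/kg. The protocol names deionized water for the controls, whereas their titles carry the word DMSO, and which vehicle was given is not settled here.

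Most circulating clotting factors are made and secreted by hepatocytes. A protease cascade turns prothrombin into thrombin, thrombin turns fibrinogen into fibrin, and plasmin dissolves the fibrin again, with protease inhibitors and the protein C system restraining each step. Several factors become functional only after a vitamin K-dependent carboxylation in the hepatocyte, while factor VIII and von Willebrand factor come mainly from endothelial cells.

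The livers of the 6 mg/kg mice held lower transcript levels of fibrinogen and of 3 of 5 contact system genes, where 9.64% of all tested genes were lower. All 3 fibrinogen chains (Fga, Fgb, Fgg), factor IX (F9) and factor XI (F11) fell by their most counted probe. So did plasma prekallikrein (Klkb1), kininogen 2 (Kng2) and hepatocyte growth factor activator (Hgfac). The fitted folds of all these genes lay between 0.442 and 0.619 of control. The second probe of Fga also fell (log2 -0.54), while those of Fgb (-2.63), Fgg (-0.17) and Hgfac (1.25) gave no call. That of Hgfac lay above every control, and it was called higher in a fit without 2 libraries that stood apart. The 6 mg/kg and control libraries also sat in different rows of the plate. Only the 0.3 mg/kg group lay in both rows, with 1 library, replicate 4, in row B, so a row term rests on that library. With plate row as a term of the fit, Fga, Fgb and Klkb1 kept their call, and F9, F11, Fgg, Kng2 and Hgfac lost it. Protein Z (Proz) was at 1.87 times control by its most counted probe, a call lost in 7 of 18 alternative settings. Its log2 fold change was 0.91 with all libraries and 0.46 without 2 libraries that stood apart, and its second probe gave -0.14 and no call. Prothrombin (F2) had log2 fold changes of -1.29 ± 0.59 with all libraries and -1.18 ± 0.12 without those 2 libraries, and only the second value passed the test. A fit of only the 8 control and 6 mg/kg libraries, with every mouse of these groups kept, also called F2 lower. By their most counted probe, the transcripts of plasminogen, factor X, factor XIII B chain and heparin cofactor II showed no change past the threshold. The second probe of plasminogen was called lower without those 2 libraries. In bulk liver, fewer cells of a type and less RNA per cell cannot be told apart.

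The proximal promoters of 5 of the lowered genes are shown because these genes lie in 2 neighbourhoods whose members fell together at 6 mg/kg. Fgg, Fga and Fgb lie within one stretch of chromosome 3 (chr3:83007724-83015049, chr3:83026076-83033627 and chr3:83040141-83049863), with 11027 and 6514 bases between neighbouring genes. F11 (chr8:45241174-45262031) and Klkb1 (chr8:45266689-45294859) lie 4658 bases apart. Gene positions are from the GENCODE annotation of GRCm38. Each sequence runs 5′ to 3′ on the gene's own strand, from RefSeq on GRCm38.p6, ends at the base before the start of the gene, and is cut to hold no transcribed base of it. Capitals mark matches, on either strand, to TTGCNNAA (a form of the site of C/EBP proteins), GTTAAT (a half-site of HNF1 proteins) or CTGGGAA (a form of the interleukin-6 response element). The fourth motif searched, CAAAGTCC (a form of the HNF4 site), was found in none of the 5.
Fga, chr3:83025903-83026075, plus strand: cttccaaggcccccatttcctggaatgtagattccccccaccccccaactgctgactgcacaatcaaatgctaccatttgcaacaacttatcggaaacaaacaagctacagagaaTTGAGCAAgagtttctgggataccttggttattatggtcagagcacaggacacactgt
Fgb, chr3:83049864-83050113, minus strand: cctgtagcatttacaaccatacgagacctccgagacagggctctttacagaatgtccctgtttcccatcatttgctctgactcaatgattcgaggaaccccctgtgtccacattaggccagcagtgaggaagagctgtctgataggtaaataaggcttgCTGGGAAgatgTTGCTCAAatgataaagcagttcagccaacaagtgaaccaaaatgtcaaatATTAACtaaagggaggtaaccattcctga
Fgg, chr3:83007474-83007723, plus strand: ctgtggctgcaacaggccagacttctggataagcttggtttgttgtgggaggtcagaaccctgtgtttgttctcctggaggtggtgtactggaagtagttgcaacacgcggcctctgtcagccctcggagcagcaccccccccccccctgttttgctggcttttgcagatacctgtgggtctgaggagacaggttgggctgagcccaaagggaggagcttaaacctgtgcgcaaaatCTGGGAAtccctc
F11, chr8:45262032-45262281, minus strand: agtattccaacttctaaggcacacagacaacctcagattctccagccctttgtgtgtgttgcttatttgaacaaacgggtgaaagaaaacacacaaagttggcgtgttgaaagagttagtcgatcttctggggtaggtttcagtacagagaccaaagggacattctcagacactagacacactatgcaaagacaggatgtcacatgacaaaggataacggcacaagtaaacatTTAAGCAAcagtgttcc
Klkb1, chr8:45294860-45295085, minus strand: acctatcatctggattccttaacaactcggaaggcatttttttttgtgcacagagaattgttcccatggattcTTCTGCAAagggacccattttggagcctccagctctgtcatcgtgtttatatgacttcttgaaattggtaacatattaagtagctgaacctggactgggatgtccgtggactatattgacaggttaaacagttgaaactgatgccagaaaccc

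A match to TTGCNNAA stood in the windows of Fga, Fgb, F11 and Klkb1. The interleukin-6 form stood in those of Fgb and Fgg, and the HNF1 half-site in that of Fgb. Of the 27 listed genes with a promoter in the RefSeq table, 9 held TTGCNNAA within 250 bases, 6 held GTTAAT, 4 held CTGGGAA and 0 held CAAAGTCC. For these counts the 250 bases were not cut to leave out transcribed bases. Fga was among the 6, although its cut window above held no GTTAAT. Over all 32851 promoters of that table the shares were 9.56%, 6.43%, 9.10% and 1.20%. These are shares of single promoters, whereas a listed gene was counted when any of its promoters matched. The counts and the shares are therefore not in the same unit, and no excess can be read from them. These matches describe letters only, and binding was not measured.

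Library totals ran from 6823518 to 10310931 counts. A probe was tested when edgeR's filter on low counts kept it, which held for 14122 probes and for 49 of the 55 probes of the listed genes. The most counted probe of a gene stood for it, and 29 of the listed genes had a tested one. Levels are CPM, the share of a probe in all counts of its library, scaled to 1000000 counts and adjusted by edgeR's scaling between libraries. They depend on how well each probe binds, so levels are compared between mice and not between genes. The threshold was a p of 0.05 in edgeR's quasi-likelihood test, adjusted by the Benjamini-Hochberg method over all tested probes.

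A pair of libraries stood apart. Replicate 4 of the 3 mg/kg group had a mean correlation of 0.892 with its group, and replicate 4 of the 6 mg/kg group one of 0.949, against at least 0.954 for every other library. In replicate 4 of the 3 mg/kg group, 154 of 4523 well-counted probes were more than 10-fold under every other library, and 3 of these were probes of F2 and Serpina10. Every other library had 0 such probes. Counts of calls at 6 mg/kg by gene class or list are given with and without both.

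Of the 29 tested genes, 8 were called lower and 1 higher at 6 mg/kg against control. Over all 10097 genes with a tested standing probe, 9.64% were called lower and 10.9% higher. The median log2 fold change of the 29 genes was -0.36, against -0.02 over all genes, and 22 of the 29 lay below 0, against 51.6% of all genes. The 4 mice at 6 mg/kg lay below the 4 controls without overlap for 12 of the 29 (14.7% of all genes) and above them for 2 (12.2% of all genes). Without the libraries that stood apart, 12 were called lower and 1 higher, against 14.9% and 13.4% of all genes. F2, Kng1, Serpinc1 and Serpina10 were the additional ones.

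**Figure D1:**
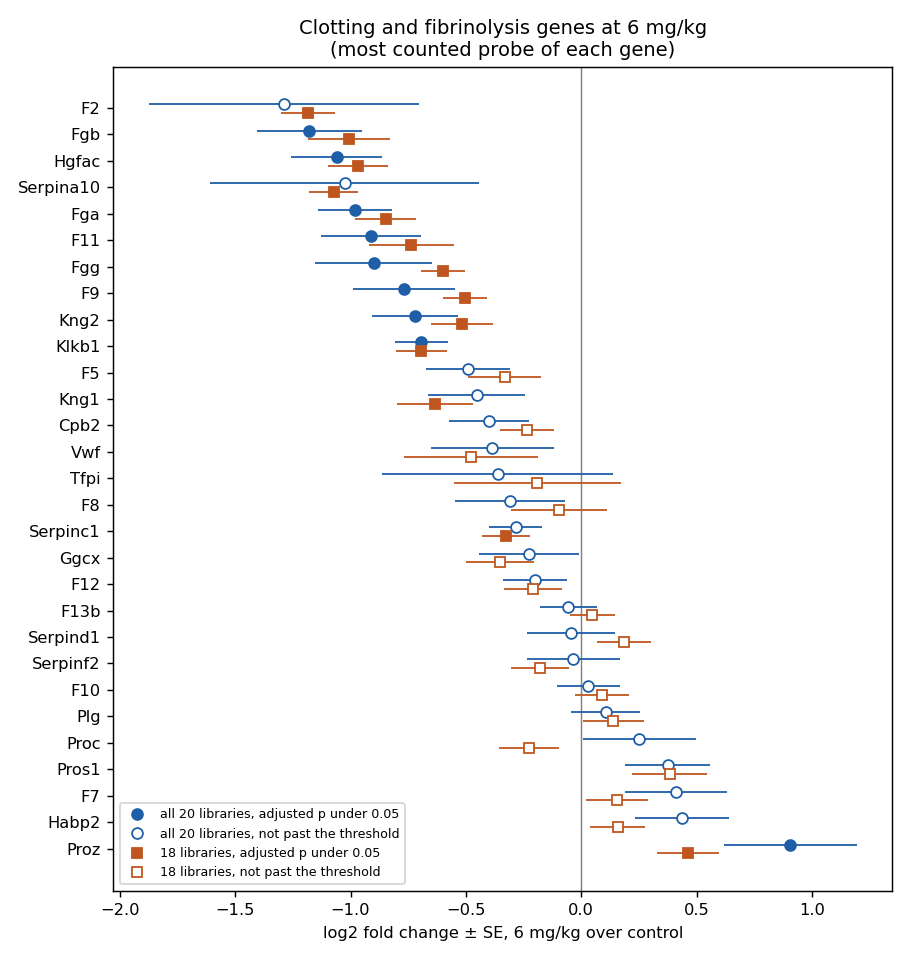
Log2 fold change at 6 mg/kg over control for the most counted probe of each of the 29 tested genes, with the standard error as bars. Circles use all 20 libraries and squares leave out the 2 libraries that stood apart, and filled symbols have an adjusted p under 0.05 (edgeR). The filled symbols lie below 0 for 8 genes by circles and for 12 by squares, and Proz is the filled gene above 0 in both.

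With all libraries, edgeR called no listed gene at the lower doses. At 0.03 mg/kg and at 0.3 mg/kg, 0 of the 29 genes were called by edgeR, as were 0% of all genes, and DESeq2 called 0 of the 29 at both. The groups of mice lay above the controls without overlap for 0 of the 29 at 0.03, 0.3 and 3 mg/kg (1.69%, 3.17% and 3.44% of all genes). An unadjusted p under 0.05 was found for 0 of the 29 at 0.03 mg/kg (3.25% of all genes) and for 2 at 0.3 mg/kg (8.67% of all genes). The 4 mice lay below the controls without overlap for 1 gene at 0.03 mg/kg (Fgg, 1.72% of all genes) and for 1 gene at 0.3 mg/kg (Serpina10, 3.76% of all genes). At 3 mg/kg edgeR called 0 of the 29, against 0.406% of all genes lower and 1.13% higher, DESeq2 called Serpinc1 lower, and 6 had an unadjusted p under 0.05, against 12.0% of all genes. Non-overlap below the controls was found there for 5 genes, F2, Fgg, Serpinc1, Serpina10 and Hgfac, against 4.59% of all genes. Without the libraries that stood apart, edgeR called Serpina10 lower at 3 mg/kg, where 1.22% of all genes were, and 0 higher, against 1.55% of all genes.

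Wells named in the titles put the control and 0.03 mg/kg libraries in plate row A, the 3 and 6 mg/kg libraries in row B, and the 0.3 mg/kg libraries in both. Of the 0.3 mg/kg libraries, replicates 1 to 3 lay in row A and replicate 4 in row B. Row and dose therefore cannot be told apart between 6 mg/kg and control except through the 0.3 mg/kg group. A row term thus rests on 1 library, and which calls it keeps or drops depends on that mouse. With row as a term of the edgeR fit, 3 of the 29 were called lower at 6 mg/kg (Fga, Fgb and Klkb1) and 0 higher, against 1.95% and 1.60% of all genes. The log2 fold changes of the genes that lost the call were then -0.89 ± 0.42 for F9, -0.48 ± 0.40 for F11, -0.88 ± 0.49 for Fgg, -0.32 ± 0.34 for Kng2, -1.0 ± 0.37 for Hgfac and 0.71 ± 0.57 for Proz. Over the 18 settings that of Hgfac ranged over -1.11 to -0.93. Within row B, 6 mg/kg against 3 mg/kg gave the same 3 genes lower and 0 higher, against 3.19% and 3.77% of all genes. The spread in that fit came from all 20 libraries. A fit of only the 8 libraries compared called 0 of the 29, and few probes of any gene passed in it. The 6 mg/kg mice lay below the 3 mg/kg mice without overlap for 4 of the 29 (5.81% of all genes) and above them for 0 (5.74% of all genes). Without the libraries that stood apart, 8 were lower there (F2, F9, Fga, Fgb, Fgg, Klkb1, Serpina10 and Hgfac), against 9.31% of all genes, and 0 higher, against 8.37%.

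Fibrinogen, the soluble precursor of the fibrin clot, is a hexamer with each of its α, β and γ chains in 2 copies. Of 4 tested genes of the fibrin class, its 3 chains and F13b, 3 were lower at 6 mg/kg with and without the libraries that stood apart, against 9.64% and 14.9% of all genes. Fga, the α chain gene, had 3237, 3369, 3650.1 and 2336 CPM in the 6 mg/kg mice, against 6968, 6399, 5274 and 6231 CPM in the control mice. No control mouse overlapped a 6 mg/kg mouse. At 0.03, 0.3 and 3 mg/kg the mice ranged over 4249.6 to 5876, 4672 to 6240.0 and 4634 to 5997 CPM. The fitted fold at 6 mg/kg was 0.506 (log2 -0.98 ± 0.16 SE, adjusted p = 0.00019, edgeR). A second probe of Fga also fell, with a log2 fold change of -0.54 ± 0.17 and an adjusted p of 0.031 in edgeR. The third, a low one, was at 6.60 to 10.8 CPM in the 6 mg/kg mice, against 5.21 to 6.47 CPM in the control mice, with a log2 fold change of 0.56 ± 0.24 that did not pass (adjusted p = 0.102).

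For Fgb, which encodes the β chain, the values were 2909.8, 2847, 2992 and 1709.6 CPM in the 6 mg/kg mice, against 6239, 6013, 4798 and 6619 CPM in the control mice. The 4 treated mice lay below all controls, and replicate 4 was the lowest of them. Its fold at 6 mg/kg was 0.442 (log2 -1.18 ± 0.23, adjusted p = 0.00095, edgeR). The second probe of Fgb was counted near the floor, at 0.400 to 1.42 CPM in the 6 mg/kg mice, against 0.985 to 14.3 CPM in the control mice, and gave no call (log2 -2.63 ± 1.09, adjusted p = 0.094, edgeR). In the intermediate groups Fgb spread widely, over 3605 to 5892 CPM at 0.03 mg/kg, 3907 to 6647 CPM at 0.3 mg/kg and 3349.7 to 6512 CPM at 3 mg/kg.

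The γ chain gene Fgg had 2379, 2429, 2596 and 687 CPM in the 6 mg/kg mice, against 3744, 3647, 4041 and 3671 CPM in the control mice. These groups did not overlap either, and replicate 4 of the 6 mg/kg group was far below the other 3. The log2 fold change was -0.90 ± 0.26 (adjusted p = 0.016, edgeR), and -0.60 ± 0.10 without the libraries that stood apart (adjusted p = 3.9e-05, edgeR). The second probe of Fgg had 1524, 1428, 1523 and 1028 CPM in the 6 mg/kg mice, against 1678, 1537, 1611 and 1347 CPM in the control mice. Its ranges overlapped and its log2 fold change was -0.17 ± 0.15 (adjusted p = 0.455, edgeR). The most counted probe of Fgg thus fell while the second gave no call. With only the 8 libraries of the comparison in the fit, neither Fgg nor F9 passed at 6 mg/kg, while F2 and Serpina10 did.

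Summed over the most counted probe of each chain, the fibrinogen level was 15911 ± 1253 CPM in controls, 13338 ± 1719 CPM at 0.03 mg/kg, 13997 ± 1913 CPM at 0.3 mg/kg, 13366 ± 2524 CPM at 3 mg/kg and 7785 ± 2059 CPM at 6 mg/kg (SD, n = 4 each). The 6 mg/kg mice ranged over 4733 to 9237 CPM, against 14113 to 16951 CPM in the controls, a ratio of means of 0.489. The exact two-sided permutation test gave p = 0.0286, the smallest that 4 against 4 allows, and 0.114 after adjustment over the 4 doses. Over all 55 probes, the listed genes took 2.44% ± 0.110 of the counts at 6 mg/kg and 3.46% ± 0.231 in controls (SD, n = 4 each). F13b, the carrier subunit of the factor XIII that cross-links fibrin, was at 179.8 to 255 CPM in the 6 mg/kg mice, against 221 to 249 CPM in the control mice, with a log2 fold change of -0.06 ± 0.12 that did not pass (adjusted p = 0.774, edgeR).

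**Figure D2:**
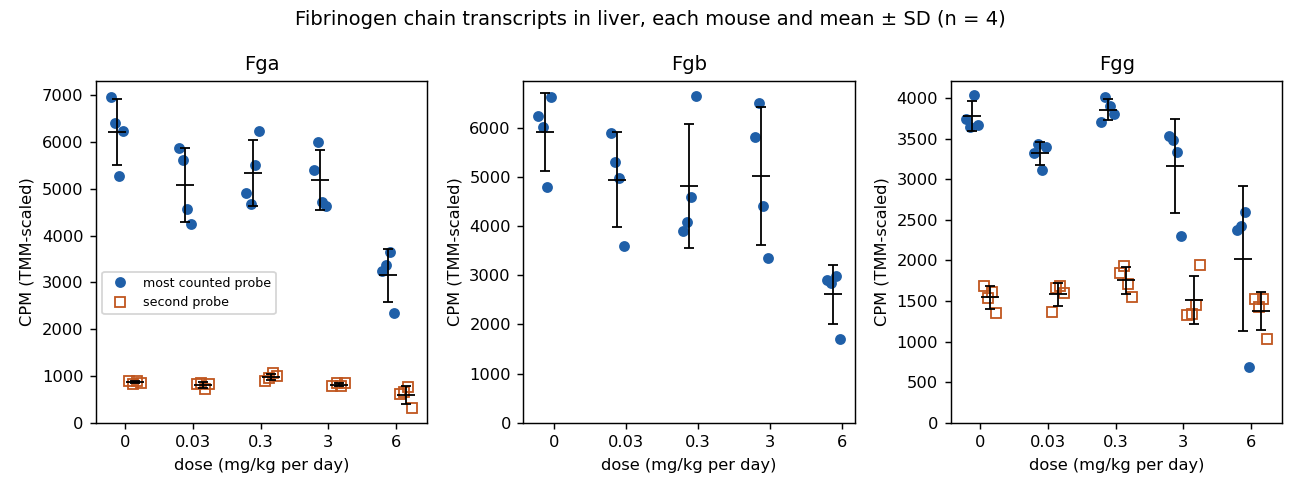
Level of the fibrinogen chain transcripts (CPM, y axis) in each mouse by dose (x axis, mg/kg per day), with the mean and SD of 4 mice. Filled circles are the most counted probe and open squares the second probe of Fga and Fgg. At 6 mg/kg the filled circles of all 3 genes lie below every control, while the open squares of Fgg overlap between these groups.

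Albumin, the main secreted product of hepatocytes, was lower as well. Over 9 measured hepatocyte markers, the summed level was 24097 to 28768 CPM in the 6 mg/kg mice, against 32157 to 41201 CPM in the controls. Alb averaged 10689 CPM in controls and 6060 CPM at 6 mg/kg, and Cyp2e1 9640 and 5516 CPM. These had the 2 highest control levels of the list and weigh most in the sum. The median log2 fold change of the 9 was -0.13, against -0.02 over all genes. Alb (-0.82 ± 0.24 log2, adjusted p = 0.021) and Cyp2e1, a cytochrome P450 (-0.81 ± 0.16, adjusted p = 0.0016), were lower and Tat, tyrosine aminotransferase, was higher (1.20 ± 0.34, adjusted p = 0.016) in edgeR. With these calls 1 of the 9 was higher and 2 were lower with and without the libraries that stood apart, against 10.9% and 9.64% of all genes with all libraries and 13.4% and 14.9% without those. Of the 9, 0 were at 0 in all libraries. The part of the hepatocyte markers in the clotting gene results was not tested.

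Among the factors that generate thrombin, 7 of 8 were tested and 1 fell, against 9.64% of all genes. There were 2 (F9 and F2) without the libraries that stood apart, against 14.9% of all genes. F9 encodes factor IX, the protease of the intrinsic tenase. It had 258, 267, 256 and 94.2 CPM in the 6 mg/kg mice, against 342, 400.4, 355 and 395 CPM in the control mice. The groups did not overlap, and replicate 4 at 6 mg/kg was the lowest. The log2 fold change was -0.77 ± 0.22 (adjusted p = 0.018, edgeR) and -0.50 ± 0.10 without the libraries that stood apart (adjusted p = 0.00028, edgeR). The mice at 0.03 mg/kg ranged over 348 to 369.5 CPM, those at 0.3 mg/kg over 311 to 348 CPM and those at 3 mg/kg over 234 to 374 CPM.

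F2 encodes prothrombin, the zymogen of thrombin. Its most counted probe had 241, 311, 263 and 207 CPM in the 6 mg/kg mice, against 589, 587, 607 and 713 CPM in the control mice, with all treated mice under all controls. At 3 mg/kg the same probe had 517, 486, 446 and 9.06 CPM, so that 1 library was far below the other 3. The second probe followed, at 19.4, 16.3, 18.7 and 0.191 CPM in the same mice. In the fit with all libraries the log2 fold change at 6 mg/kg was -1.29 ± 0.59 (adjusted p = 0.125, edgeR). It was -1.18 ± 0.12 without the libraries that stood apart (adjusted p = 4.3e-08, edgeR), and the second probe then also passed (-0.87 ± 0.21, adjusted p = 0.0040). Without them at 3 mg/kg, the most counted probe had -0.37 ± 0.11 and missed the threshold (adjusted p = 0.092, edgeR). At 6 mg/kg, a fit of only the 8 control and 6 mg/kg libraries, with replicate 4 kept, also called this probe lower.

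**Figure D3:**
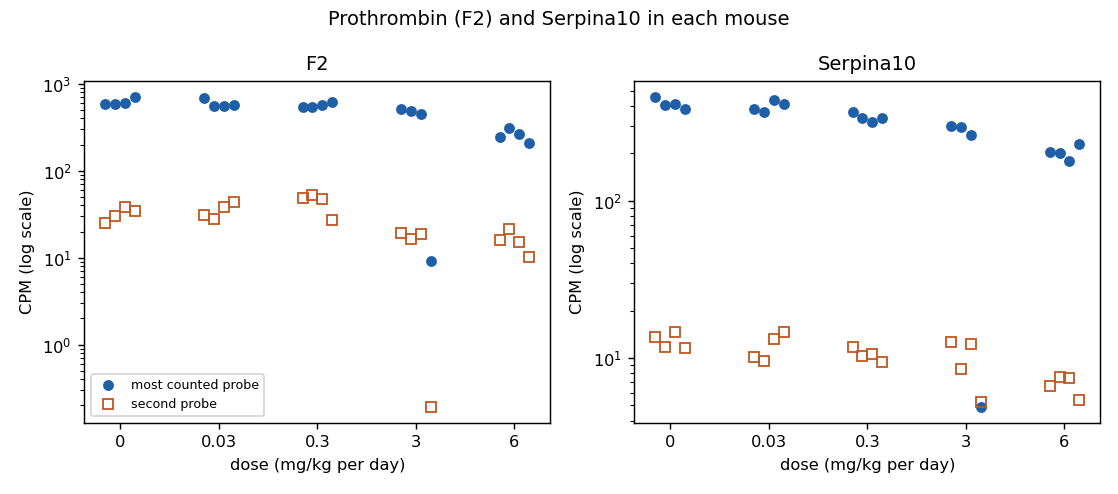
Levels of F2 and Serpina10 (CPM on a log y axis) in each mouse by dose (x axis, mg/kg per day). Filled circles are the most counted probe and open squares the second probe. In replicate 4 of the 3 mg/kg group the filled circle lies at 9.06 CPM for F2 and 4.86 CPM for Serpina10, far below the other 3 mice, and both probes of both genes lie below all controls at 6 mg/kg.

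F5, the cofactor of the prothrombinase complex, had 74.2, 87.1, 89.7 and 51.5 CPM in the 6 mg/kg mice, against 86.0, 87.0, 138 and 113 CPM in the control mice. The ranges overlapped, and its log2 fold change was -0.49 ± 0.18 (adjusted p = 0.061, edgeR). F8, the cofactor of the tenase, had 21.9, 15.1, 12.3 and 8.10 CPM in the 6 mg/kg mice, against 17.8, 21.4, 19.6 and 12.1 CPM in the control mice. Its ranges overlapped too (log2 -0.31 ± 0.24, adjusted p = 0.372, edgeR). Vwf is the carrier of factor VIII and a platelet adhesion protein. Its most counted probe was low, with 16 to 29 counts in the 6 mg/kg mice and 19 to 30 in the control mice. Levels of Vwf were 2.52, 2.31, 1.89 and 2.90 CPM in the 6 mg/kg mice, against 2.37, 3.38, 3.02 and 3.89 CPM in the control mice. Its log2 fold change was -0.39 ± 0.27 (adjusted p = 0.315, edgeR), and the remaining probes of Vwf gave no call or were too low to test.

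Markers of liver endothelium summed to 300.0 to 379 CPM in the 6 mg/kg mice, against 305 to 324 CPM in the controls. Of 13 tested endothelial markers, 2 rose (Pecam1 and Egfl7) and 0 fell, against 10.9% and 9.64% of all genes. Leaving out the libraries that stood apart, 3 rose, Stab1 being the additional one (0.49 log2, adjusted p = 0.021, edgeR), against 13.4% of all genes. Their part in the F8 and Vwf values was not tested. Platelet and megakaryocyte markers summed to 0.853 to 2.04 CPM at 6 mg/kg, against 1.51 to 4.12 CPM in controls. Of 6, 1 was tested (Itgb3, the platelet integrin β chain), which missed the threshold with all libraries (-0.95 ± 0.36, adjusted p = 0.067, edgeR) and passed without those that stood apart (-1.30, adjusted p = 0.016, edgeR).

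Neither F10, the protease of the prothrombinase, nor F7, the protease that starts the extrinsic pathway, gave a call. F10 was at 507 to 594 CPM in the 6 mg/kg mice, against 439.7 to 600.3 CPM in the control mice, with a log2 fold change of 0.03 ± 0.13 and an adjusted p of 0.892 in edgeR. F7 was at 16.0 to 31.1 CPM in the 6 mg/kg mice, against 14.4 to 16.3 CPM in the control mice (0.41 ± 0.22, adjusted p = 0.193, edgeR), and its highest mouse at 6 mg/kg was replicate 4. F7, F10 and Proz neighbour each other on chromosome 8, with 1499 bases between F7 and F10 and 4238 between F10 and Proz. F3, tissue factor, which starts the extrinsic pathway with factor VII, was at 0 to 0.800 CPM in the 6 mg/kg mice, against 0 to 0.563 CPM in the controls, where 3 counts equal 0.251 to 0.511 CPM across libraries. It was too low to test.

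The contact system starts clotting on charged surfaces and releases bradykinin. All 5 of its listed genes were tested, and 3 fell at 6 mg/kg by their most counted probe, against 9.64% of all genes. A fit without the libraries that stood apart gave 4, Kng1 being the additional one, against 14.9% of all genes. Klkb1, plasma prekallikrein, the zymogen that cleaves kininogen, had 67.5, 72.2, 76.5 and 74.9 CPM in the 6 mg/kg mice, against 107, 125, 110.0 and 128 CPM in the control mice. The groups were separate, and the 6 mg/kg mice were close together. The log2 fold change was -0.69 ± 0.11 against control (adjusted p = 0.00021) and -0.53 ± 0.11 against 3 mg/kg (adjusted p = 0.0085), both in edgeR. Klkb1 lay at 101 to 114 CPM at 0.03 mg/kg, 99.6 to 110.2 CPM at 0.3 mg/kg and 91.5 to 119 CPM at 3 mg/kg.

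F11, whose product is activated by factor XII and thrombin and in turn activates factor IX, had 13.2, 12.1, 13.6 and 7.50 CPM in the 6 mg/kg mice, against 15.9, 23.9, 26.7 and 20.5 CPM in the control mice. No mice of the groups overlapped. Its log2 fold change was -0.91 ± 0.22 against control (adjusted p = 0.0054, edgeR) and -0.72 ± 0.22 against 3 mg/kg, which missed the threshold (adjusted p = 0.051, edgeR). Its mice ranged over 20.6 to 25.2 CPM at 0.03 mg/kg, 17.3 to 29.0 CPM at 0.3 mg/kg and 14.7 to 25.1 CPM at 3 mg/kg.

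Kininogens are the precursors of bradykinin, and their mouse genes Kng1 and Kng2 are closely similar neighbours on chromosome 16, 28383 bases apart, so reads of one may be counted for the other. Kng2 had 53.2, 53.7, 52.4 and 27.4 CPM in the 6 mg/kg mice, against 85.0, 86.3, 74.7 and 61.4 CPM in the control mice. Its groups did not overlap (log2 -0.72 ± 0.19, adjusted p = 0.0092, edgeR). Kng2 at 3 mg/kg was at 45.8 to 64.4 CPM, between the other groups but overlapping both (-0.48 ± 0.19 against control, adjusted p = 0.281, edgeR). The most counted probe of Kng1 had 1511, 1243, 1214 and 2092 CPM in the 6 mg/kg mice, against 2561, 2315, 1456 and 1964 CPM in the control mice, and here the ranges overlapped (-0.45 ± 0.21, adjusted p = 0.129, edgeR). The second probe of Kng1 had 1056, 970.1, 992 and 498 CPM in the 6 mg/kg mice, against 2037, 1898, 1446 and 2389 CPM in the control mice, without overlap (-1.14 ± 0.24, adjusted p = 0.0019, edgeR), and the third also passed (-0.38 ± 0.12, adjusted p = 0.034, edgeR).

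F12, the factor XII zymogen that starts contact activation, was at 72.4 to 86.6 CPM in the 6 mg/kg mice, against 78.4 to 109.6 CPM in the control mice by its most counted probe, with overlap (-0.20 ± 0.14, adjusted p = 0.313, edgeR). The third and lowest probe of F12 had 4.32, 3.41, 4.02 and 9.0 CPM in the 6 mg/kg mice, against 1.75, 1.97, 2.37 and 1.43 CPM in the control mice, above all controls (1.46 ± 0.35, adjusted p = 0.0059, edgeR). Its second probe gave no call, at 46.5 to 52.4 CPM in the 6 mg/kg mice, against 29.5 to 49.4 CPM in the control mice (0.38 ± 0.20, adjusted p = 0.180, edgeR).

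Anticoagulant genes had 7 of 8 tested, with 1 higher and 0 lower, against 10.9% and 9.64% of all genes. In the fit without the libraries that stood apart, 1 was higher (Proz) and 2 were lower (Serpinc1 and Serpina10), against 13.4% and 14.9% of all genes. Proz, protein Z, the cofactor of an inhibitor of factor Xa, had 132, 110.5, 108 and 290.0 CPM in the 6 mg/kg mice, against 79.6, 81.8, 83.1 and 96.9 CPM in the control mice. The 6 mg/kg mice lay above all controls, and replicate 4 was far above the others. The log2 fold change was 0.91 ± 0.29 (adjusted p = 0.031, edgeR) and 0.46 ± 0.13 without the libraries that stood apart (adjusted p = 0.012, edgeR). The values at 3 mg/kg were 84.4, 125, 108 and 227 CPM, again with replicate 4 the highest. The second probe of Proz showed overlap, at 37.1 to 53.6 CPM in the 6 mg/kg mice, against 46.2 to 59.6 CPM in the control mice (-0.14 ± 0.16, adjusted p = 0.556, edgeR). The call of Proz held in 11 of 18 settings, and the adjusted p ranged over 0.012 to 0.509.

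Serpina10 encodes the protein Z-dependent protease inhibitor, the partner of protein Z. Its most counted probe had 204, 201, 179.8 and 230.2 CPM in the 6 mg/kg mice, against 459, 408, 411 and 382 CPM in the control mice, with no overlap. At 3 mg/kg it had 299, 292, 262 and 4.86 CPM, and 1 mouse was far below the other 3. The log2 fold change at 6 mg/kg was -1.03 ± 0.58 with all libraries (adjusted p = 0.220, edgeR) and -1.07 ± 0.11 without those that stood apart (adjusted p = 5.1e-08, edgeR). The most counted probe was also called lower in a fit of only the 8 control and 6 mg/kg libraries. The second probe passed with all libraries (-0.93 ± 0.23, adjusted p = 0.0063, edgeR).

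Serpinc1 encodes antithrombin, the main inhibitor of thrombin and factor Xa. Its most counted probe had 1500.3, 1715, 1787 and 1923 CPM in the 6 mg/kg mice, against 1984, 2041, 2211 and 2201 CPM in the control mice. The groups did not overlap, yet the log2 fold change of -0.28 ± 0.12 missed the threshold (adjusted p = 0.084, edgeR). It passed without the libraries that stood apart, at -0.33 ± 0.10 (adjusted p = 0.020, edgeR). The second probe had 1275, 1476, 1512 and 573 CPM in the 6 mg/kg mice, against 1900.0, 2078, 2530.3 and 2709 CPM in the control mice and passed (-0.93 ± 0.24, adjusted p = 0.0082, edgeR), whereas the third overlapped (0.08 ± 0.16, adjusted p = 0.759, edgeR).

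Pros1, protein S, the cofactor of activated protein C, had 36.0 to 40.7 CPM in the 6 mg/kg mice, against 21.7 to 35.8 CPM in the control mice. These ranges did not overlap, but the log2 fold change of 0.37 ± 0.18 missed the threshold (adjusted p = 0.150, edgeR). The second probe of Pros1 passed, at 6.10 to 8.28 CPM in the 6 mg/kg mice, against 3.23 to 4.08 CPM in the control mice (0.95 ± 0.20, adjusted p = 0.0021, edgeR). Proc, protein C, was at 19.6 to 55.8 CPM in the 6 mg/kg mice, against 21.3 to 29.3 CPM in the control mice (0.25 ± 0.24, adjusted p = 0.483, edgeR), and its highest mouse was replicate 4 of the 6 mg/kg group. Serpind1, heparin cofactor II, and Tfpi, the inhibitor of the tissue factor pathway, gave no call, at -0.04 ± 0.19 (adjusted p = 0.891) and -0.36 ± 0.50 (adjusted p = 0.634) on the log2 scale in edgeR. Serpina5, the protein C inhibitor, which mouse liver expresses little, was at 0 to 0.120 CPM in the 6 mg/kg mice, against 0 to 0.281 CPM in the controls, and was not tested.

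Of the 6 genes of fibrinolysis and related proteases, 5 were tested and 1 fell with and without the libraries that stood apart, against 9.64% and 14.9% of all genes. Hgfac, a serine protease that activates hepatocyte growth factor, had 165, 192, 201 and 147 CPM in the 6 mg/kg mice, against 347, 379.5, 329 and 415 CPM in the control mice. The groups were separate by a wide margin. The log2 fold change was -1.06 ± 0.20 (adjusted p = 0.00071, edgeR). Hgfac at 3 mg/kg had 280.3, 305, 244 and 130.2 CPM, all below the controls, with a log2 fold change of -0.62 ± 0.20 that missed the threshold (adjusted p = 0.147, edgeR). The low second probe of Hgfac had 8.65, 7.80, 7.81 and 20.4 CPM in the 6 mg/kg mice, against 5.12, 4.50, 4.53 and 4.67 CPM in the control mice, above all controls, with 1.25 ± 0.49 on the log2 scale and no call (adjusted p = 0.074, edgeR). It passed without the libraries that stood apart, at 0.79 ± 0.19 (adjusted p = 0.0031, edgeR), so that the probes of Hgfac then changed in opposite directions.

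Plg, plasminogen, the zymogen of plasmin, had 1567, 1869.9, 2008 and 1709 CPM in the 6 mg/kg mice, against 1379.8, 1551, 1958 and 1762 CPM in the control mice. The ranges overlapped, with a log2 fold change of 0.11 ± 0.15 (adjusted p = 0.640, edgeR). Its second probe had -0.05 ± 0.19 (adjusted p = 0.862, edgeR), and -0.36 ± 0.11 without the libraries that stood apart, which passed (adjusted p = 0.020, edgeR). Its main inhibitor Serpinf2, α2-antiplasmin, was at 791 to 1222 CPM in the 6 mg/kg mice, against 839 to 1074 CPM in the control mice (-0.03 ± 0.20, adjusted p = 0.920, edgeR). Cpb2, the carboxypeptidase that protects fibrin from plasmin, was at 543 to 960.3 CPM in the 6 mg/kg mice, against 971 to 1145 CPM in the control mice, without overlap but without a call (-0.40 ± 0.17, adjusted p = 0.106, edgeR). Habp2, a plasma serine protease, was at 69.2 to 158 CPM in the 6 mg/kg mice, against 64.3 to 79.3 CPM in the control mice (0.44 ± 0.20, adjusted p = 0.133, edgeR). Plat, tissue plasminogen activator, was at 0.100 to 0.487 CPM in the 6 mg/kg mice, against 0 to 0.431 CPM in the controls, and was not tested.

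The vitamin K cycle had 1 gene with a probe. Ggcx, the γ-carboxylase that modifies factors II, VII, IX and X, had 74.9, 111, 104 and 135 CPM in the 6 mg/kg mice, against 97.5, 105, 137 and 157 CPM in the control mice. Its ranges overlapped (log2 -0.23 ± 0.22, adjusted p = 0.480, edgeR). In the 3 mg/kg group it had 101, 100.4, 101 and 45.1 CPM, with replicate 4 the lowest. The second probe of Ggcx had a log2 fold change of 0.14 ± 0.21 at 6 mg/kg, that of F10 0.10 ± 0.13 and that of Habp2 0.26 ± 0.18, none of them called.

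For 16 genes the ratio of the most counted to the second probe was compared within each library, a check chosen after the data were seen. The 4 ratios at 6 mg/kg did not overlap the 4 of the controls for 5 genes, each at the smallest exact two-sided permutation p of 0.0286 and an adjusted p of 0.0914 over the 16. Such ratios were not computed for genes off the list. No share over all genes can be set beside this count, so it shows nothing particular to the listed genes. The mean ratio of Hgfac was 15.6 at 6 mg/kg and 64.4 in controls, that of Fgg was 1.32 at 6 mg/kg and 2.45 in controls, and that of F12 was 1.64 at 6 mg/kg and 2.47 in controls. The mean ratio of Proz was 3.16 at 6 mg/kg and 1.67 in controls, and that of Serpinc1 was 1.53 at 6 mg/kg and 0.924 in controls. Without replicate 4 of the 6 mg/kg group, those of Proz and Serpinc1 no longer reached the smallest exact p (0.0571 each), and that of Ggcx reached 0.0286, which is the smallest that 3 against 4 allows, where it had 0.0857 with all libraries. Both probes had the same sign of change in 11 of the 16 genes, and both were called the same way in 1, Fga. These counts too were taken for the listed genes only.

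**Figure D4:**
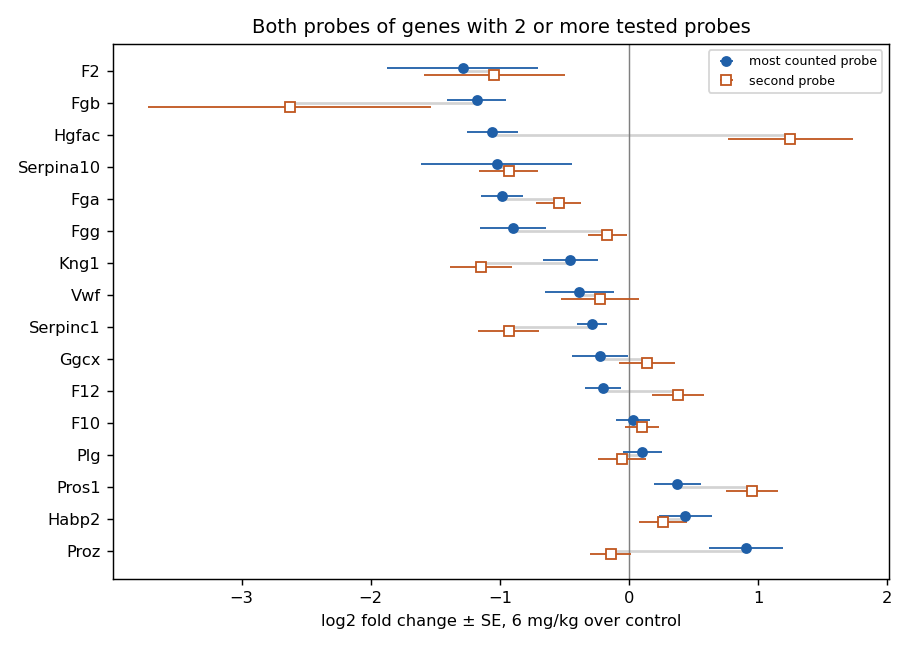
Log2 fold change at 6 mg/kg over control (x axis, with standard errors as bars) for the most counted probe (filled circles) and the second probe (open squares) of each of the 16 genes with more than 1 tested probe, 1 gene per row. Both symbols lie on the same side of 0 for 11 genes, and those of Hgfac lie far apart, at -1.06 and 1.25.

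Other genes of the clotting and fibrinolytic system were read from a separate list of 36, of which 18 were tested at 6 mg/kg, with 2 higher, 2 lower and a median log2 fold change of 0.19, against 10.9%, 9.64% and -0.02 over all genes. Without the libraries that stood apart, 3 were higher and 4 lower with a median of 0.11, against 13.4%, 14.9% and -0.03 over all genes. S100a10 (1.14 ± 0.15, adjusted p = 1.5e-05, edgeR) and Anxa2 (0.78 ± 0.19, adjusted p = 0.0064, edgeR) form the annexin A2 complex that binds plasminogen at the cell surface, and both rose. Hgf, the substrate of the Hgfac product, fell (-1.24 ± 0.23, adjusted p = 0.00062, edgeR), and so did C4bp, the carrier of protein S in man (-0.57 ± 0.18, adjusted p = 0.028, edgeR). Those that passed without the libraries that stood apart, and missed with all of them, were Hrg, histidine-rich glycoprotein (-0.78, adjusted p = 0.00036), Serping1, the C1 inhibitor (-0.67, adjusted p = 0.00022), and Vkorc1l1, a paralog of the vitamin K epoxide reductase (0.41, adjusted p = 0.011), all in edgeR.

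Of 17 transcription factors and signalling genes that act on clotting gene transcription in liver, 15 were tested, with 1 higher, 3 lower and a median log2 fold change of 0.15, against 10.9%, 9.64% and -0.02 over all genes. Without the libraries that stood apart, 1 was higher and 4 were lower with a median of 0.06, against 13.4%, 14.9% and -0.03 over all genes, and Stat3, a transcription factor activated by interleukin-6 signalling, was the additional one (-0.52, adjusted p = 0.022, edgeR). Cebpa, a C/EBP factor of mature hepatocytes, averaged 361 ± 24.3 CPM at 6 mg/kg and 914 ± 66.8 CPM in controls (SD, n = 4 each). Its log2 fold change was -1.34 ± 0.16 (adjusted p = 6.8e-06, edgeR). Foxa3, a forkhead factor of liver, fell by 1.32 on the log2 scale (SE 0.24, adjusted p = 0.00055, edgeR), and Il6st, the signalling subunit of the interleukin-6 receptor, by 0.36 (SE 0.10, adjusted p = 0.020, edgeR). Cebpb, a C/EBP factor of the acute phase, averaged 54.0 ± 17.5 CPM at 6 mg/kg and 28.5 ± 3.07 CPM in controls (SD, n = 4 each), a log2 fold change of 0.92 ± 0.23 (adjusted p = 0.0072, edgeR).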

How the data were processed

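The authors deposited raw counts per probe, 1 column for each of 20 livers, whole numbers without normalization. The submitters' processing notes name GRCm38.p5, a mouse genome build, and Bowtie, whose version is not given in the sources used here. Listed genes, marker lists and the comparisons were chosen with earlier results of these data known. Replicates are individual animals, per the labels' protocols, were numbered in accession order and pair nothing.

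Counts were fitted in R 4.3.3 with edgeR 4.0.16 (TMM scaling, filterByExpr, robust quasi-likelihood test), over all 20 libraries with 1 mean per group. The filter kept 99.8% of counts. The Benjamini-Hochberg adjustment covered all 14122 probes tested, and the script was tested on simulated data. Alternatives used DESeq2 1.42.0 and limma 3.58.1. Libraries of the same group differed by more than counting error, with a chi-square per degree of freedom of at least 3.66 over 30 pairs. Values by mouse are given for genes whose most counted probe passed at 3 or 6 mg/kg or between these doses and for Fga, Fgb, Fgg, F2, F5, Plg, Serpinc1, Ggcx, F8 and Vwf. Those of Kng1, Serpina10 and the second probes were chosen after their values were seen. Genes outside the list were named where they passed at 6 mg/kg with all libraries or without those that stood apart, and Ly6g, S100a9 and Hbb-bt were chosen after their values were seen. One marker result is not reported here. Floors of 3 counts cover counting error only. Exact permutation tests were two-sided.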

Additional observations from a re-analysis of the deposited data

Results flagged for a closer look

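In 145 groups of 4 mice (29 genes in 5 dose groups), a mouse was marked when its gap to the nearest other mouse took more of the whole range of its group than Dixon's critical value for 4 samples allows. This marked 19 groups, where chance, at about 1 in 20, marks 7.25. Replicate 4 of the 3 mg/kg group was the marked mouse in 8 of them and replicate 4 of the 6 mg/kg group in 6.

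In replicate 4 of the 3 mg/kg group, the gap as a share of the range was 0.859 for F2 (9.06 CPM, with 446 to 517 CPM in the other 3 mice), 0.874 for Serpina10 (4.86 CPM, with 262 to 299 CPM), 0.897 for F9 (234 CPM, with 359 to 374 CPM), 0.845 for Fgg (2296 CPM, with 3335 to 3526 CPM) and 0.987 for Ggcx (45.1 CPM, with 100.4 to 101 CPM), all low. The same library was high for Plg (0.934, 2072 CPM, with 1504 to 1541 CPM), Habp2 (0.872, 126 CPM, with 75.1 to 81.6 CPM) and F12 (0.842, 110.0 CPM, with 84.5 to 88.5 CPM).

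In replicate 4 of the 6 mg/kg group the share was 0.941 for F9 (94.2 CPM, with 256 to 267 CPM in the other 3), 0.887 for Fgb (1709.6 CPM, with 2847 to 2992 CPM), 0.887 for Fgg (687 CPM, with 2379 to 2596 CPM) and 0.950 for Kng2 (27.4 CPM, with 52.4 to 53.7 CPM), all low. It was high for Proc (0.895, 55.8 CPM, with 19.6 to 23.4 CPM) and Proz (0.868, 290.0 CPM, with 108 to 132 CPM).

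The other 5 were F2 in control replicate 4 (high, 0.841) and in 0.03 mg/kg replicate 1 (high, 0.905), F13b in 0.3 mg/kg replicate 3 (high, 0.876), Plg in 0.03 mg/kg replicate 4 (high, 0.865) and Habp2 in control replicate 4 (low, 0.942). What set these libraries apart was not tested.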

How the results depend on the processing

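Under the alternatives run, 266 log2 fold changes of named genes kept their direction and their side of the threshold, 14 lost the call, 8 gained one and 0 reversed. Fga, Fgb and Klkb1 were called at 6 mg/kg in 18 of 18 settings, F9 and Fgg in 16, and F2 in 2. Among the 29 listed genes at 6 mg/kg, the 1 called higher became 0 with no count filter, with limma-voom and with plate row as a term, and 2 with probes summed per symbol. The 8 called lower became 3 with plate row as a term and 12 without both libraries that stood apart. They became 10 with DESeq2, which added F5 and Serpinc1, and 10 with probes summed per symbol, which added Kng1 and Serpinc1. The shares of all genes called lower in the DESeq2 and summed fits are not given here. At 3 mg/kg, 1 was lower with DESeq2 and 1 without both libraries that stood apart, in place of 0. Between 6 and 3 mg/kg, the 3 lower became 8 without those libraries and 0 in a fit of the 8 libraries compared. Over all probes, DESeq2 called 2 at 0.03 mg/kg and 28 at 0.3 mg/kg, where edgeR called 0, 387 at 3 mg/kg, where edgeR called 211, and 1439 between 6 and 3 mg/kg, where edgeR called 950. Fits of the 8 libraries compared called 4 at 0.3 mg/kg, 44 at 3 mg/kg and 11 between 6 and 3 mg/kg. Plate row as a term left 1 call at 3 mg/kg and 508 of 2867 at 6 mg/kg. Without both libraries that stood apart, 1 probe was called at 0.03 mg/kg, 379 at 3 mg/kg and 2478 between 6 and 3 mg/kg.

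Leaving out each mouse in turn gave 0 to 2 listed genes higher and 8 to 10 lower at 6 mg/kg. The shares of all genes called in these fits are not given here, so the counts cannot be set against them. Proz was the gene lost without control replicate 1, 2 or 3 or without 6 mg/kg replicate 4, and Habp2 was gained without 6 mg/kg replicate 1. It gave 0 to 1 lower at 3 mg/kg, with Serpina10 gained without 3 mg/kg replicate 4. Between 6 and 3 mg/kg it gave 2 to 9 lower and 0 to 1 higher, and both highest counts came without 3 mg/kg replicate 4, where F7 was the gene called higher. Over all probes the counts ran from 0 to 1 at 0.3 mg/kg (1 without replicate 2 of that group), from 124 to 279 at 3 mg/kg, with 124, 132 and 128 without control replicates 1, 2 and 4, and from 302 to 3105 between 6 and 3 mg/kg. The last were 302, 408 and 3105 without 3 mg/kg replicates 1, 2 and 4, and 503, 609 and 601 without 6 mg/kg replicates 2, 3 and 4. The cause of these differences was not tested. No paired analysis was possible because the labels give no replicate numbers. With 4 mice a group the median standard error of a log2 fold change at 6 mg/kg was 0.27. Tfpi, F3, Serpina5 and Plat lie near the floor of 3 counts, and the most counted probe of Vwf was low.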

Other observations

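Markers of other liver and blood cells were read at 6 mg/kg against control, beside the clotting genes, where 9.64% of all genes were lower and 10.9% higher with all libraries, and 14.9% and 13.4% without the libraries that stood apart. Of 8 tested stellate cell markers, 4 fell (Lrat, Reln, Dcn and Ecm1) and 1 rose (Col1a1, a fibrillar collagen chain), and their sum was 98.2 to 138 CPM in the 6 mg/kg mice, against 179 to 191 CPM in the controls. Col1a1 averaged 13.2 ± 14.1 CPM at 6 mg/kg and 3.13 ± 1.48 CPM in controls (SD, n = 4 each), with a log2 fold change of 2.07 with all libraries and 0.98 without those that stood apart. Col3a1, another collagen chain, missed the threshold with all libraries (0.39, adjusted p = 0.085) and passed without those that stood apart (0.51, adjusted p = 0.0071), both in edgeR. The same 4 were lower in that fit. Of 8 tested Kupffer cell markers, 1 was lower with all libraries (C1qb, a chain of complement C1q) and 2 without those that stood apart, Csf1r, a growth factor receptor of macrophages, being the additional one (-0.52, adjusted p = 0.036, edgeR). Their sum was 72.4 to 119 CPM at 6 mg/kg, against 112 to 164 CPM in controls.

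Neutrophil markers did not move alike. S100a8, a calcium-binding protein of neutrophils, averaged 46.9 ± 10.3 CPM at 6 mg/kg and 1.53 ± 1.06 CPM in controls (SD, n = 4 each), a log2 fold change of 4.92 (adjusted p = 2.9e-07, edgeR). Ly6g, a neutrophil surface protein, averaged 0.768 ± 0.510 CPM at 6 mg/kg and 1.59 ± 0.704 CPM in controls, with -1.06 ± 0.46 and no call (adjusted p = 0.104, edgeR). S100a9, the partner of S100a8, averaged 0.464 ± 0.269 CPM at 6 mg/kg and 0.878 ± 0.585 CPM in controls and was too low to test with all libraries. Nkg7, a granule protein of natural killer and cytotoxic T cells, fell (-1.32 ± 0.45, adjusted p = 0.044, edgeR). Of 2 tested erythroid markers, Alas2, the first enzyme of heme synthesis in erythroid cells, rose (1.21 ± 0.42, adjusted p = 0.044, edgeR), and Hbb-bt, a globin chain, averaged 8.64 ± 6.71 CPM at 6 mg/kg and 16.8 ± 9.09 CPM in controls (SD, n = 4 each), with -0.97 ± 0.52 and no call (adjusted p = 0.189, edgeR). None of the markers with a probe was at 0 in all 20 libraries, and the part of these cells in the clotting gene levels was not tested.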
